A study of Mus musculus with 4 samples.

Results

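Fc gamma receptors are the cell surface receptors through which myeloid cells sense IgG bound to targets. Expression of 8 genes of this system was followed in *in vitro* MDSCs, chosen by their symbols among the 24346 genes listed for each library. They are the activating receptors *Fcgr1*, *Fcgr3* and *Fcgr4*, the inhibitory receptor *Fcgr2b*, the signalling adaptors *Fcer1g* and *Tyrobp*, the kinase *Syk*, and *Fcgrt*, which encodes the heavy chain of the neonatal Fc receptor. All 8 were found, and all 8 passed the filter on low values.

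*In vitro* MDSCs are immature myeloid cells grown here from bone marrow (BM) of female C57BL/6J mice aged 6 to 8 weeks. All cultures received 40 ng/ml GM-CSF for 4 days. In 2 cultures nothing was added (Control), and in the other 2 cultures 5 ng/ml G-CSF was present as well (G-CSF). RNA was read from whole, unsorted cultures, so a lower value cannot be divided into fewer cells of a type and less RNA per cell. By flow cytometry of such cultures, the study reported a larger share of monocytic MDSCs and a smaller share of polymorphonuclear MDSCs with G-CSF. The part of this shift in the values here was not tested. The study calls the 2 cultures of a group biological replicates. Whether they came from separate mice is not given, and p-values measure only the spread between these libraries.

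The activating receptors signal through a partner. Binding of IgG complexes leads Src family kinases to phosphorylate a pair of tyrosines in the adaptor encoded by *Fcer1g*, a motif called ITAM, and the kinase SYK docks on the phosphorylated pair. The receptor encoded by *Fcgr2b* carries a single tyrosine motif (ITIM) in its own tail, which recruits phosphatases and limits the same signal. DAP12, the product of *Tyrobp*, is a second ITAM adaptor that serves other receptors, and the neonatal Fc receptor binds IgG inside cells and recycles it.

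The motifs that define these roles could be read in the coding sequences of GENCODE M21 (GRCm38). They are shown to make the division between the activating chains and the inhibitory receptor visible. Capitals mark the codons of the motif tyrosines and of the leucine or other aliphatic residues at fixed distances from them.

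*Fcer1g* ITAM: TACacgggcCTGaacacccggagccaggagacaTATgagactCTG

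*Tyrobp* ITAM: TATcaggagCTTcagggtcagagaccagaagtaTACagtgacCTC

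*Fcgr2b* ITIM: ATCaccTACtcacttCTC

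In both adaptors the pair of tyrosine units is separated by 7 codons, and the motif runs from exon 4 into exon 5 of 5. The *Fcer1g* motif covers codons 65 to 79 of 86 (minus strand, chr1:171229889-171230072, with an intron inside), and the *Tyrobp* motif codons 92 to 106 of 114 (plus strand, chr7:30415670-30417382, with an intron inside). The *Fcgr2b* motif covers codons 317 to 322 of 340 in exon 8 of 8 (minus strand, chr1:170961071-170961088). The codon pattern searched for the ITIM also occurs 3 times in *Fcgr1* and in 1 place in *Fcgr4*, so a match alone does not make an ITIM. No paired motif was found in the coding sequence of any of the 4 receptors.

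All 8 genes were expressed in every library, at levels that spanned more than 80-fold on the FPKM scale (fragments per kilobase of transcript, scaled to the mapped reads). Adaptor mRNA was the most abundant. *Tyrobp* stood at 1768 and 1761 FPKM in Control and 1275 and 1406 FPKM with G-CSF, and ranked between 30 and 68 among all genes of a library. *Fcer1g* ranked between 61 and 117. *Fcgr3* followed, then *Fcgr2b* and *Syk*, with no overlap between neighbours in this order.

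*Fcgr1*, *Fcgrt* and *Fcgr4* were the lowest, between 14.4 and 27.0 FPKM. The order of *Fcgr1* above *Fcgrt* held in every library, but their 95% Poisson intervals overlapped in both G-CSF libraries and in Control replicate 2. Those of *Fcgrt* and *Fcgr4* overlapped in both Control libraries. These intervals use reads estimated from the FPKM values and cover counting error only. The adaptor transcripts are short, and the FPKM of short transcripts depends on how the effective length was computed, which bears on levels between genes and not on the comparison between groups.

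Does G-CSF change the expression of the Fc gamma receptor system? All 8 genes were lower with G-CSF, and in all 8 both G-CSF values lay below both Control values, an arrangement seen in 32.5% of the 11728 genes tested. With limma and Benjamini-Hochberg adjustment over all genes tested, 6 of the 8 fell at an adjusted p under 0.05 (*Fcgr4*, *Fcer1g*, *Tyrobp*, *Fcgr3*, *Fcgr2b* and *Fcgr1*), where 11.9% of all genes tested fell by the same rule. The falls were modest. None of the 8 genes passed the threshold of the study, an adjusted p under 0.05 with a fold change over 2, which 1.37% of all genes tested passed. At an unadjusted p under 0.05, 7 of the 8 were lower (limma). The share of all genes tested that pass this looser rule was not counted, so no excess can be read from this count. The median log2 fold change of the 8 genes was -0.28, beside 0.003 for all genes tested. The genes were chosen with earlier results of these data known, and these counts are descriptions of the 8 genes.

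**Figure D1:**
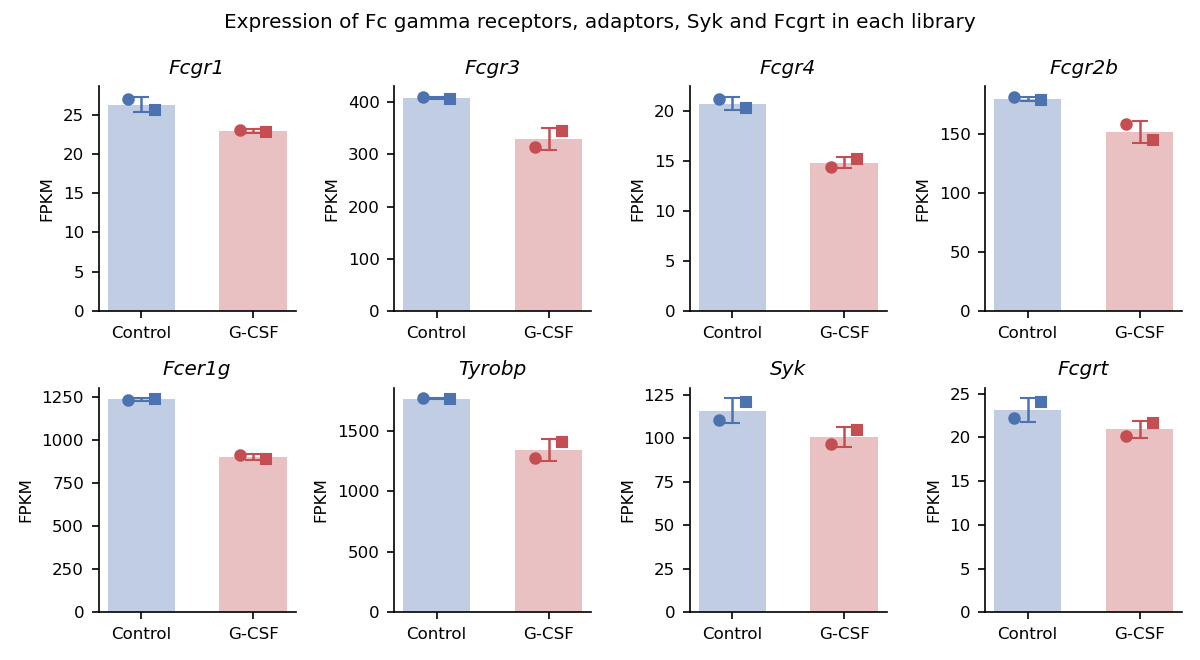
FPKM (vertical axis, from 0) of each of the 8 genes in the 2 Control and 2 G-CSF libraries. Bars are means, whiskers the SD (n = 2), circles replicate 1 and squares replicate 2; in every panel both G-CSF points lie below both Control points.

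Among the activating receptors, *Fcgr4*, which encodes a receptor for IgG2a and IgG2b, had the lowest level of the 8 genes and, beside *Fcer1g*, the largest fall. It stood at 21.2 and 20.2 FPKM in Control and at 14.4 and 15.2 FPKM with G-CSF. The means were 20.7 ± 0.686 and 14.8 ± 0.534 FPKM (SD, n = 2 each), a fitted log2 change of -0.48 ± 0.0648 (SE, limma, adjusted p = 0.00561), or 28.4% less. Percentages here and for the other genes are from the fitted change. The difference between the means exceeded the SD of either group. It rests on 188 to 299 estimated reads per library, and the 95% Poisson intervals of the G-CSF libraries did not overlap those of the Control libraries.

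*Fcgr3* encodes CD16, a low-affinity receptor for IgG complexes and the most abundant receptor mRNA here. Its values were 410.1 and 407.2 FPKM in Control and 314.9 and 344.4 FPKM with G-CSF. The Control libraries were nearly equal, and the G-CSF libraries were lower and further apart. Its fitted log2 change was -0.31 ± 0.0544 (SE, limma, adjusted p = 0.0112), a fall of 19.4%.

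*Fcgr1* encodes CD64, the high-affinity receptor, which can bind monomeric IgG. It stood at 27.0 and 25.6 FPKM in Control and at 23.1 and 22.8 FPKM with G-CSF. The groups were separate, with a fitted log2 change of -0.20 ± 0.0573 (SE, limma, adjusted p = 0.0486), or 12.8% less. The adjusted p lies close to the threshold and was above it with any of the 4 libraries left out (0.0766 to 0.214) and with no filter on low values (0.0767).

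The inhibitory receptor *Fcgr2b* (CD32) fell as well. Its values were 181.2 and 178.6 FPKM in Control and 158.2 and 145.0 FPKM with G-CSF. Both G-CSF libraries were below both Control libraries, and the fitted log2 change was -0.25 ± 0.0534 (SE, limma, adjusted p = 0.0204), or 15.8% less. Without Control replicate 1 the adjusted p was 0.0606, without G-CSF replicate 2 it was 0.0695, and with no filter on low values it was 0.0559.

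*Fcgr2b*, *Fcgr4* and *Fcgr3* lie next to each other on chromosome 1, and the coding sequences of *Fcgr2b* and *Fcgr3* were identical at 623 of 694 aligned bases (89.8%), against 68.8% for *Fcgr2b* and *Fcgr4* and 69.9% for *Fcgr3* and *Fcgr4*. Reads of 75 bases can therefore fit both genes. The closest stretch of 150 coding bases, which crosses from exon 3 into exon 4 in both genes, is shown for this reason. Capitals mark the bases that differ.

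*Fcgr2b* (minus strand, chr1:170966675-170968103, with an intron inside): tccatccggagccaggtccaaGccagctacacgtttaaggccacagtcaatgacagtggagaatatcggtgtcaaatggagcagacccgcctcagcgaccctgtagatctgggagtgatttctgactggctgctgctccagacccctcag

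*Fcgr3* (minus strand, chr1:171054168-171057814, with an intron inside): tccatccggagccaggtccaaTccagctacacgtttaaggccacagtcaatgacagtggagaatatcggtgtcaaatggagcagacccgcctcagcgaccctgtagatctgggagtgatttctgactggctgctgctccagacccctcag

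Of the 75-base windows in the protein-coding transcripts of *Fcgr3*, 5.78% also occur in *Fcgr2b*. Of those of *Fcgr2b*, 2.48% occur in *Fcgr3* and 4.12% in any other gene. The values of both genes are uncertain to the extent that such reads were divided between them. The windows of the other 6 genes, *Fcgr4* and *Fcgr1* included, were found in no other annotated gene. Antisense genes are annotated over *Fcgr2b* (*Gm38204*) and *Fcgrt* (*Gm45669*) and were not analysed here. The library kit keeps strand, but whether the counting used it is not given.

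The adaptor *Fcer1g*, which all 3 activating receptors need for signalling and stable surface expression, had the smallest p of the 8 genes. It stood at 1233 and 1242 FPKM in Control and at 913.7 and 888.4 FPKM with G-CSF. The means of 1238 ± 6.67 and 901.1 ± 17.9 FPKM (SD, n = 2 each) gave a fitted log2 change of -0.46 ± 0.0480 (SE, limma, adjusted p = 0.0035), a fall of 27.2%. Of all genes tested, 7.44% had a lower log2 fold change than *Fcer1g* and 6.84% a lower one than *Fcgr4*.

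*Tyrobp* fell by 0.40 on the log2 scale (standard error 0.0633, adjusted p = 0.00875 from limma), or 24.1%, from means of 1764 ± 5.30 to 1341 ± 93.2 FPKM (SD, n = 2 each). Its Control values were nearly equal, and its G-CSF values lay below them and further apart.

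*Syk* encodes the tyrosine kinase that docks on phosphorylated ITAMs. It stood at 110.8 and 121.0 FPKM in Control and 96.8 and 104.7 FPKM with G-CSF. The groups did not overlap, but the fitted log2 change of -0.20 (SE 0.0622, 95% interval -0.35 to -0.05) had an adjusted p of 0.0581 (limma). It passed with upper-quartile scaling (0.0391), with voom on estimated reads (0.0448), without Control replicate 1 (0.0417) and without G-CSF replicate 2 (0.0486), so its side of the threshold depends on these settings.

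*Fcgrt* stood at 22.2 and 24.1 FPKM in Control and 20.2 and 21.6 FPKM with G-CSF. The nearest values of the groups were closer to each other than the libraries within a group, and the fitted log2 change of -0.14 (SE 0.0690, 95% interval -0.31 to 0.02, limma, adjusted p = 0.169) did not pass. *B2m*, the light chain of the neonatal Fc receptor and of MHC class I, did fall, from 1487 and 1469 FPKM to 1273 and 1221 FPKM (fitted log2 change -0.25 ± 0.0517 SE, limma, adjusted p = 0.0193). The call of *B2m* was lost without G-CSF replicate 1 and with no filter on low values.

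**Figure D2:**
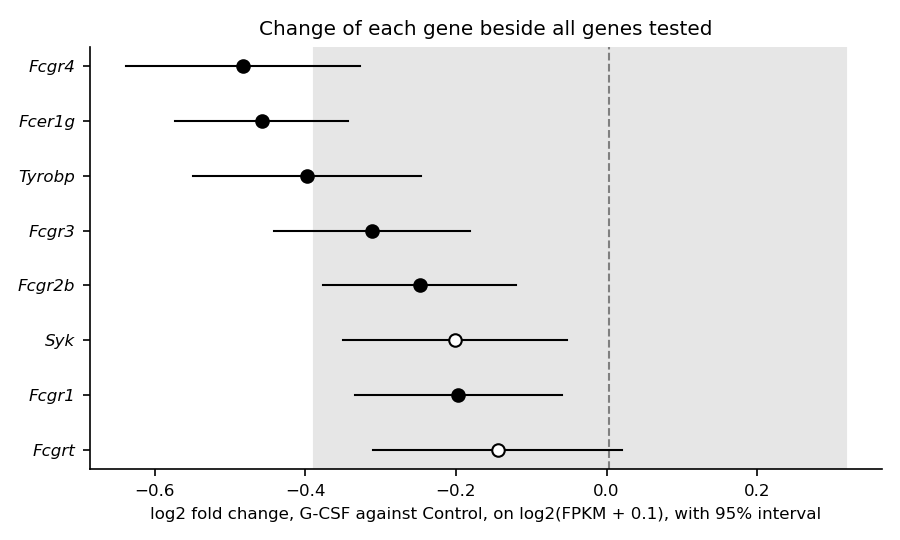
Log2 fold change between G-CSF and Control (horizontal axis, on log2(FPKM + 0.1)) of the 8 genes with 95% intervals from limma; filled points have an adjusted p under 0.05. The grey band holds the middle of all 11728 genes tested (10th to 90th percentile, -0.39 to 0.32) and the dashed line their median; *Fcgr4*, *Fcer1g* and *Tyrobp* lie outside the band.

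Whether activating and inhibitory receptors fell to a different extent was examined with ratios of FPKM inside each library, which do not depend on scaling between libraries. With 2 libraries against 2, the exact permutation test (two-sided) cannot give a p below 0.333, so none of the 7 ratios examined could pass. *Fcgr4* to *Fcgr2b* was 0.117 and 0.113 in Control against 0.0911 and 0.105 with G-CSF. This ratio was lower in both G-CSF libraries (exact permutation p = 0.333, 0.778 after Benjamini-Hochberg adjustment over the 7 ratios).

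*Fcgr3* to *Fcgr2b* was 2.26 and 2.28 in Control against 1.99 and 2.38 with G-CSF, and the groups overlapped. The sum of *Fcgr1*, *Fcgr3* and *Fcgr4* to *Fcgr2b* was 2.53 and 2.54 in Control against 2.23 and 2.64 with G-CSF, with G-CSF replicate 1 below and replicate 2 above both Control libraries (log2 difference -0.06, exact permutation p = 1). Leaving out G-CSF replicate 1 turned this difference to 0.06, and no direction can be read from it. The ratio of *Fcgr1* to *Fcgr2b* (0.143 to 0.149 in Control, 0.146 to 0.157 with G-CSF) overlapped too.

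*Fcer1g* per activating receptor mRNA was 2.69 and 2.74 in Control against 2.59 and 2.32 with G-CSF, lower in both G-CSF libraries (exact permutation p = 0.333). *Tyrobp* to *Fcer1g* was 1.43 and 1.42 in Control against 1.40 and 1.58 with G-CSF, which overlapped. *Fcgr3* to *Fcgr4* was higher in both G-CSF libraries, at 21.9 and 22.7, than in Control, at 19.4 and 20.1 (exact permutation p = 0.333).

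**Figure D3:**
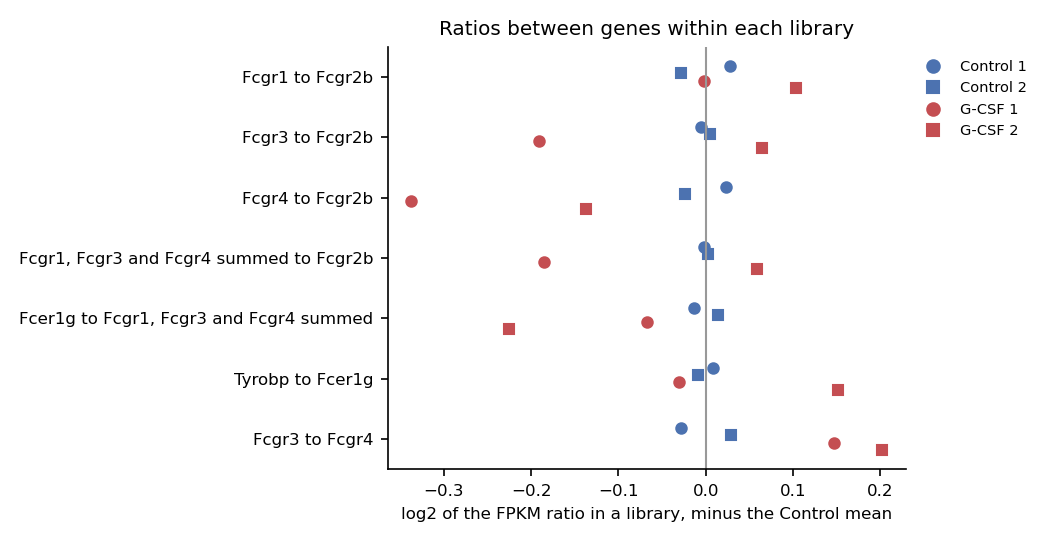
Log2 of 7 FPKM ratios in each library, relative to the Control mean (horizontal axis); blue is Control, red is G-CSF, circles replicate 1 and squares replicate 2. *Fcgr4* to *Fcgr2b* and *Fcer1g* to the summed activating receptors lie left of both Control libraries, and the sum of activating receptors to *Fcgr2b* lies on either side.

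Within G-CSF, the 8 genes did not all differ between the 2 libraries in the same direction. *Fcgr3*, *Fcgr4*, *Tyrobp*, *Syk* and *Fcgrt* were lower in replicate 1 than in replicate 2, while *Fcgr1*, *Fcgr2b* and *Fcer1g* were higher in replicate 1. The 95% Poisson intervals of the 2 libraries overlapped for *Fcgr4*, *Fcgrt*, *Fcgr1* and *Fcer1g*. They did not for *Fcgr3*, *Tyrobp*, *Syk* and *Fcgr2b*. Genes were then compared by the root mean square difference of their log2 values, centred on each gene's mean over the 4 libraries. For each of the 6 genes that fell, the nearest other gene of the 8 was 0.0436 to 0.0503 away. Genes outside the system were nearer, but they were drawn from 11728 tested genes and not from 8. No conclusion on the system can be drawn from that. The 3 nearest were *Serf2*, *Akap13* and *Cdh1* for *Fcgr1*, *Vps54*, *Sh3pxd2b* and *Mitf* for *Fcgr2b*, and *Cyba*, *Sat1* and *Proz* for *Fcgr3*. For *Fcgr4* they were *Lmbr1l*, *Cd84* and *Anxa4*, for *Fcer1g* *Camk1d*, *Cyp4f18* and *Lgals3*, and for *Tyrobp* *P2rx4*, *Fam65b* and *C530005A16Rik*. Their differences were between 0.0036 and 0.0188, over 4 libraries that hold 2 conditions, so many genes can share such a pattern. *Cyba*, which encodes a subunit of the phagocyte NADPH oxidase, stood at 1085 and 1085 FPKM in Control and 832.9 and 913.5 FPKM with G-CSF, nearly in proportion to *Fcgr3*.

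*Fcgr2b*, *Fcgr4*, *Fcgr3* and *Fcer1g* share a region of 275.7 kb (chr1:170958617-171234365), and all 4 fell. *Fcgr1* lies at chr3:96282909-96293969, *Fcgrt* at chr7:45092990-45103851, *Tyrobp* at chr7:30413760-30417585 and *Syk* at chr13:52583173-52648792. Of the other genes inside the chromosome 1 region, 2 had enough reads to be tested, and neither fell. *Sdhc* stood at 82.1 and 88.5 FPKM in Control and 83.8 and 87.5 FPKM with G-CSF (log2 fold change 0.01, adjusted p = 0.944 from limma), and *Tomm40l* at 9.02 and 9.02 against 9.98 and 10.6 FPKM (0.19, adjusted p = 0.119 from limma).

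Promoters were compared, both of genes that fell and of genes that did not pass. RefSeq promoters (GRCm38.p6, 250 bases before to 50 after the start) were given for 7 of the 8 genes, without *Tyrobp*, in 9 sequences. They were searched on both strands for GAGGAA, the core that the myeloid factor PU.1 recognises, and for TTCNNNGAA, the palindrome that STAT factors recognise. The first occurred in 28.3% and the second in 8.30% of all 32851 promoters in the table. GAGGAA was found in the promoters of *Fcgr1*, *Fcgr3* and *Fcgr4*, on the opposite strand (as TTCCTC), and in 1 of the 2 promoters of *Syk*. It was not in these windows of *Fcgr2b*, *Fcer1g* and *Fcgrt*. Of these, *Fcgr2b* and *Fcer1g* fell at an adjusted p under 0.05 (limma), while *Syk* did not pass. Genes that fell were thus found both with and without GAGGAA. The bases around it are shown with the motif in capitals.

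*Fcgr1* (minus strand, chr3:96293992-96294051): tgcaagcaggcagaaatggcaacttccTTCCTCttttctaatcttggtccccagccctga

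*Fcgr3* (minus strand, chr1:171059395-171059454): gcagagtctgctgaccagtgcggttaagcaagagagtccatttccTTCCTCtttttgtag

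*Fcgr4* (plus strand, chr1:171018866-171018925): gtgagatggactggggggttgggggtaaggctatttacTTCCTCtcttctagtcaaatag

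The motif lay 55 to 50 bases before the start of *Fcgr1* and 22 to 17 before that of *Fcgr4*, counted from the RefSeq starts. For *Fcgr3* it lay 15 to 10 bases before the start used, and another RefSeq start of this gene lies nearer to the motif. The *Fcgr3* start used lies inside the span that GENCODE M21 gives the gene, and the last bases of the *Fcgr3* and *Fcgr4* windows lie in an exon there. TTCNNNGAA occurred in the *Fcgr1* promoter, as TTCCCAGAA 109 to 101 bases before the start, and in no other promoter of the 8 genes. A match describes letters in these windows, and binding was not measured.

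The rest of the pathway was followed with 6 lists of 100 genes in all. They were written from general knowledge, but with earlier results of these data known, so their counts are descriptions of these lists. Of these genes, 98 were in the files and 89 were tested. At an adjusted p under 0.05, 34 fell (38.2%, beside 11.9% of all genes tested) and 3 rose (beside 13% of all genes tested), with a median log2 fold change of -0.20. Between 21 and 31 fell when a library was left out, the fewest without G-CSF replicate 1 (21) and without Control replicate 1 (23), and 1 rose without either of these. With no filter on low values 19 fell, when 744 genes fell in the whole table. Without that filter 0 of the other Fc receptors, 2 kinases, 4 genes downstream of SYK, 2 negative regulators, 4 adaptor partners and 7 of the receptors listed for ITIMs fell. None of the 89 changed with a fold change over 2.

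Of the Src family and related kinases, which phosphorylate ITAMs or act beside SYK, 4 of 8 tested fell and 0 rose. *Fgr* stood at 75.1 and 72.1 FPKM in Control and 59.1 and 60.9 FPKM with G-CSF (limma, adjusted p = 0.00900), and *Tec* at 25.7 and 24.3 against 17.3 and 20.1 FPKM (limma, adjusted p = 0.0152). *Fyn*, with 7.09 and 5.85 FPKM in Control and 4.34 and 4.50 FPKM with G-CSF, had an adjusted p of 0.0233 (limma). Without G-CSF replicate 1, 2 of these kinases fell.

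Downstream of SYK, 8 of 28 genes tested fell and 0 rose, with 3 falling without Control replicate 1 and 5 without G-CSF replicate 1. *Nckap1l*, a part of the WAVE complex that drives actin branching during phagocytosis, stood at 135.8 and 134.5 FPKM in Control and 108.6 and 106.5 FPKM with G-CSF (fitted log2 change -0.33 ± 0.0415 SE, limma, adjusted p = 0.00498). *Prkcd*, a protein kinase C, fell by 0.30 on the log2 scale (adjusted p = 0.0101 from limma), and *Pik3r5*, a regulatory subunit of PI3K gamma, by 0.29 (adjusted p = 0.0137 from limma).

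Of 13 negative regulators of this signal tested, 4 fell and 0 rose, and 2 fell without Control replicate 1, without G-CSF replicate 1 or without G-CSF replicate 2. The adaptors *Dok3* (88.4 ± 4.25 to 65.4 ± 2.59 FPKM, SD, n = 2 each), *Dok2* (87.1 ± 3.13 to 67.2 ± 0.408 FPKM) and *Dok1* (26.4 ± 1.60 to 21.8 ± 0.328 FPKM) had adjusted p-values of 0.00499, 0.00498 and 0.0252 (limma). For *Inpp5d* and *Ptpn6*, which encode the phosphatases SHIP1 and SHP-1 that act at ITIM receptors, the adjusted p was 0.0769 and 0.0941 (limma), with all G-CSF values below the Control values.

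The list of other receptors that signal through the *Fcer1g* or *Tyrobp* products also holds *Hcst*, itself an adaptor gene. Genes of this list were called in both directions. Of 16 tested, 5 fell and 2 rose, a share of rises near the 13% of all genes tested. *Clec4n*, which encodes Dectin-2, stood at 1016 and 1096 FPKM in Control and 774.5 and 825.5 FPKM with G-CSF (log2 fold change -0.40, adjusted p = 0.00747 from limma). *Cd300lb* fell by 0.42 on the log2 scale (adjusted p = 0.00498 from limma) and *Pilrb2* by 0.48 (adjusted p = 0.00600 from limma), with 10.4% of the *Pilrb2* windows shared with other genes. The 2 that rose, named after their values were seen, were *Clec5a*, which encodes a DAP12 partner, from 62.6 and 67.0 to 75.6 and 79.7 FPKM (log2 fold change 0.26, adjusted p = 0.0185 from limma), and *Sirpb1b*, from 6.49 and 6.51 to 7.86 and 8.69 FPKM (0.34, adjusted p = 0.0373 from limma). With a library left out, 0 or 1 of these receptors rose.

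Of the list written for receptors with ITIMs, 11 of 18 tested fell and 1 rose. The list also holds *Lilr4b* and *Cd200r1*, which carry no ITIM, and both were among those that fell. The coding sequences of this list were not searched for the motif, so other genes in it may lack an ITIM too. *Cd33*, which encodes a sialic acid binding lectin, stood at 154.8 and 150.6 FPKM in Control and 98.4 and 101.6 FPKM with G-CSF (fitted log2 change -0.61 ± 0.0439 SE, limma, adjusted p = 0.00129), a larger fitted fall than that of any of the 8 genes. *Lilr4b* and *Lilrb4a* fell by 0.42 and 0.36 on the log2 scale (adjusted p = 0.00418 and 0.00485 from limma), but 18.5% and 91.6% of their windows occur in other annotated genes, so their values are uncertain. With a library left out 8 to 11 fell. *Pecam1*, named after its values were seen, rose from 20.0 and 19.1 to 24.6 and 24.0 FPKM (log2 fold change 0.31, adjusted p = 0.0136 from limma), a call lost without G-CSF replicate 1.

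Of the other Fc receptors and *B2m*, 6 of 12 genes were tested, 2 fell and 0 rose. With either Control library left out 1 fell, and without G-CSF replicate 1 it was 0 (limma). Besides *B2m*, *Fcer1a*, the IgE-binding chain of the mast cell and basophil receptor, fell from 1.92 and 2.33 to 0.883 and 1.25 FPKM (fitted log2 change -0.94 ± 0.213 SE, limma, adjusted p = 0.0234). *Fcrl1* had a log2 fold change of -0.77 (adjusted p = 0.0513 from limma).

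**Figure D4:**
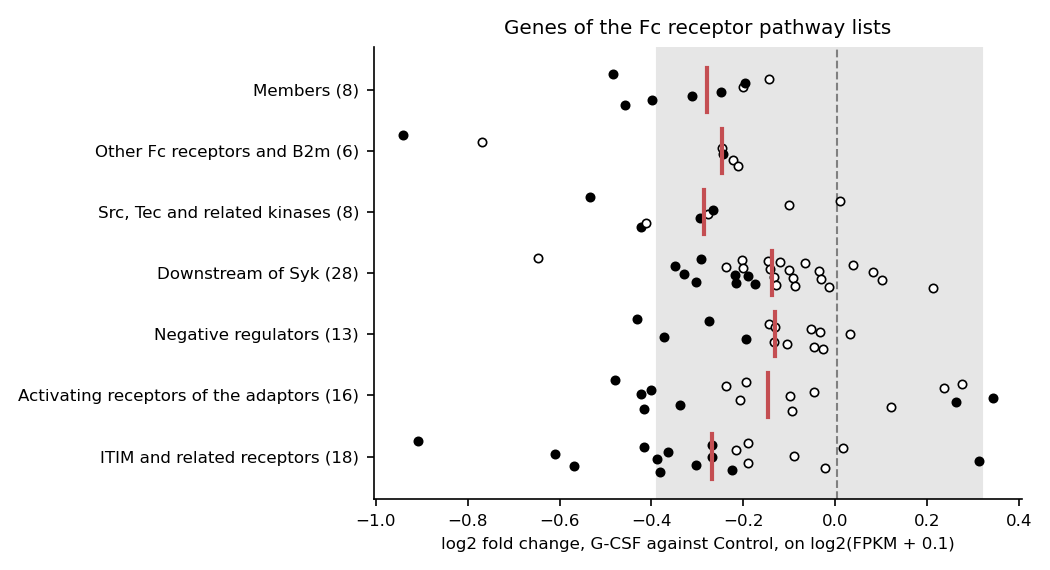
Log2 fold change between G-CSF and Control (horizontal axis, on log2(FPKM + 0.1)) of each tested gene of the 8 and of the 6 pathway lists, with the number of genes in brackets; filled points have an adjusted p under 0.05, and red ticks are medians. Grey band and dashed line are as for all genes tested; the medians of all lists lie left of the dashed line, and 3 filled points lie right of it.

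The libraries held about 12.4 to 15.6 M mapped reads, estimated from the steps of the low FPKM values, and Pearson's r of log2 FPKM, over genes reaching 1 FPKM in all 4 libraries, was 0.995 between the replicates of either group. Marker levels of several cell types moved with the 8 genes, and their part in the falls was not tested. Of 7 neutrophil markers tested 5 fell (4 or 5 with a library left out), with a median log2 fold change of -0.55 over the 7. *Camp* (-1.81, adjusted p = 0.000392), *Retnlg* (-1.81, adjusted p = 0.00418) and *Ltf* (-1.32, adjusted p = 0.00281, limma) fell over 2-fold, more than any of the 8 genes. The summed level of the 7 was 39217 to 44949 FPKM in Control and 30960 to 31031 FPKM with G-CSF, most of it from *S100a8* (log2 fold change -0.36, adjusted p = 0.0724 from limma). Of 6 macrophage markers 4 fell (171.5 to 194.0 FPKM summed in Control, 124.1 to 142.2 FPKM with G-CSF), and with a library left out 0 to 3 fell, the lowest count without G-CSF replicate 1. Of 6 mast cell or basophil markers 4 fell (94.3 to 96.1 against 61.1 to 65.7 FPKM), of 5 dendritic cell markers 2 (136.3 to 167.8 against 89.4 to 122.8 FPKM, 1 to 3 with a library left out) and of 3 eosinophil markers tested 2 (260.5 to 338.4 against 162.2 to 207.7 FPKM). Of 5 monocyte markers, *Csf1r* fell (not without Control replicate 2 or G-CSF replicate 1) and *F13a1* rose, and the summed levels were 1431 to 1485 and 1311 to 1385 FPKM. With no filter on low values, 0 markers of macrophages, dendritic cells, eosinophils and B cells passed (limma). In that fit 3 markers of neutrophils and 3 of mast cells or basophils fell, and of the monocyte markers 1 fell and 1 rose. Markers of B cells summed to 5.42 FPKM or less, with 1 of 3 tested lower (0 without Control replicate 1 or G-CSF replicate 2), those of NK or T cells to 1.68 FPKM or less with *Ncr1* at 0, and those of erythroid cells to 1.57 FPKM or less. The labels' extraction text speaks of liver tissue, and all 5 hepatocyte markers were listed at 0 in all 4 libraries.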

How the data were processed

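The authors read stranded mRNA libraries (TruSeq) over 75 bases from a single end, and the deposited tables hold 1 value per gene and library. The values were taken as FPKM computed by the authors, since the submitters' processing notes name Cufflinks 2.2.1, with TopHat2 2.0.13, Bowtie2 2.2.3, SAMtools 0.1.19 and mm10, and no table states a unit. The gene annotation is not given in the sources used here. Coordinates are from GENCODE M21 (GRCm38, the assembly called mm10).

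Reads were estimated from FPKM, the median length of a gene's protein-coding transcripts less 210 bases, and the depth at which low values fall on whole reads (66.5% of 1858 within 0.05 reads). The test took the 11728 genes that reached 10 estimated reads in at least 2 libraries and 15 summed over the 4; 347 genes without a length and genes of 200 bases or less were left out. G-CSF was compared with Control on log2(FPKM + 0.1) by limma (trend, two-sided, Benjamini-Hochberg). The pseudocount draws low fold changes toward 0. The members and lists were chosen with earlier results of these data known. The rule named all members and, per list, genes called over 2-fold or else the 3 with the smallest p. Alternatives were 2 scalings, pseudocounts of 1 and 0.01 FPKM, 2 filters, voom, a block on the replicate number and leaving out each library. The fit was tested on simulated data, with planted changes larger than those of the members and scored by calls over 2-fold. Changes as small as those of the members were not covered. Tools were R 4.3.3 with limma 3.58.1, and python 3.11.15 with pandas 2.3.3, scipy 1.17.1, numpy 2.4.6, matplotlib 3.10.9 and Biopython 1.88.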

Additional observations from a re-analysis of the deposited data

How the results depend on the processing

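Each of the 8 genes was refitted under 12 alternatives. All 96 fold changes were below 0, 83 stayed on the same side of an adjusted p of 0.05, 8 were no longer past it (5 of *Fcgr1*, 3 of *Fcgr2b*) and 5 moved past it (all of *Syk*, with upper-quartile scaling, voom, the replicate block and 2 libraries left out). *Fcgr3*, *Fcgr4*, *Fcer1g* and *Tyrobp* passed under every alternative run, with adjusted p-values up to 0.0407, 0.0236, 0.0225 and 0.0406 (limma). The number of the 8 genes at an adjusted p under 0.05 was 4 with no filter on low values, 5 with any library left out and 6 or 7 otherwise, and 0 had a fold change over 2 in any fit.

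The sources do not say that libraries with the same replicate number share an origin. Their deviations from the group means correlated with r = 0.24 across genes, and a fit with that number as a block passed 7 of the 8 genes (*Syk* in addition, limma adjusted p = 0.0073), 49 of the pathway list genes and called 175 genes of the whole table with a fold change over 2. Over the whole table, 161 genes were called with a fold change over 2 (104 lower, 57 higher), 58 with a pseudocount of 1 FPKM, 77 with at least 1 FPKM required in every library, and 147 to 174 with a library left out. Genes of the whole table that fell at an adjusted p under 0.05 numbered 1393, 1970 with the block, 744 with no filter and 789 to 1041 with a library left out. Pathway list genes at an adjusted p under 0.05 numbered 37, 21 with no filter on low values, and 22 to 33 with a library left out (24 without Control replicate 1 and 22 without G-CSF replicate 1). The log2 difference of the ratio of activating receptors to *Fcgr2b* ranged from -0.185 to 0.0583 with a library left out, the latter without G-CSF replicate 1. The causes of these changes were not tested. The filters change which genes are tested, and the part of this in the changed counts was not tested either. Fits without a library leave 1 library in a group, which is assumed to vary like the other group. The 95% interval of *Fcgrt*, -0.31 to 0.02, includes falls as large as those of genes that passed.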
